A study of Mus musculus with 7 samples.

Results

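Non-dividing oligodendrocyte precursor cells of the mouse forebrain were compared before and after the second postnatal week. Across 7 single-cell RNA libraries, 1565 cells met the definition, of 21002 cells that passed the quality limits and 25747 barcodes in all. Cells were selected on their own counts: at least 500 genes, at most 10% mitochondrial UMIs, at least 1 UMI of Pdgfra, at least 2 UMIs over Cspg4, C1ql1, Lhfpl3 and Matn4, at most 1 UMI over Mki67, Top2a, Birc5, Cenpf and Ube2c, and at most 1 over Cx3cr1 and P2ry12. A UMI is a barcode that marks 1 captured RNA molecule. The earlier group held 815 precursors of 3 libraries, namely 146 from P2 cortex, 262 from P7 cortex and 407 from P7 SVZ (the ventricular-subventricular zone). The later group held 750 precursors of 4 libraries, namely 449 from P15 cortex, 108 from P60 cortex, 101 from P60 grey matter and 92 from P60 white matter. The selection set no limit on the commitment markers Gpr17, Enpp6, Mog and Mag. In the same order of libraries, 54, 152 and 241 earlier and 381, 70, 69 and 54 later cells held over 1 UMI of them. That share was thus uneven over the libraries compared. The boundary between P7 and P15 was placed with earlier results of these libraries known, and p-values of this contrast take no account of that choice.

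The mice were aged 2, 7, 15 or 60 days after birth, and the labels name no treatment and no engineered allele for any group. The P7 SVZ library came from C57BL/6 mice and the other 6 libraries from CD1 mice. Cortex libraries took the tissue above the lateral ventricles, which includes the V-SVZ, white matter and grey matter. The grey matter sample at P60 left out the white matter beneath it, the white matter sample held the callosum with the V-SVZ, and P7 SVZ the dorsal and lateral V-SVZ. Nothing in the labels says that libraries came from separate animals or how many animals were pooled, so p-values measure only the spread between these libraries. Strain, region and library cannot be told apart for P7 SVZ.

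Oligodendrocyte precursor cells divide, migrate and give rise to the oligodendrocytes that wrap axons in myelin, and a dividing pool of them persists in the adult brain. PDGF receptor alpha receives the growth signal that keeps them cycling, and the proteoglycan NG2, encoded by Cspg4, marks their surface. In rodents most cortical myelin is laid down from the second postnatal week onwards, while precursors themselves become slower to divide and to differentiate with age.

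Counts were summed per library and are given as CPM, a gene's count scaled to the same total in every sum, in the order P2 cortex, P7 cortex and P7 SVZ for the earlier libraries, then P15 cortex, P60 cortex, P60 grey matter and P60 white matter for the later ones. The sums held between 370561 UMIs (P60 white matter) and 2998580 UMIs (P7 SVZ), so that 3 UMIs of a gene equal 1.0 CPM in the deepest and 8.10 CPM in the shallowest sum. Precursors made up 4.45, 6.33 and 10.9% of kept cells in the earlier and 15.7, 3.47, 5.38 and 4.62% in the later libraries. P7 SVZ lost 2132 barcodes to the mitochondrial limit and carried a barcode set that overlapped the other libraries by at most 1 barcode. Other pairs of libraries shared 2 to 28 barcodes, and no 2 libraries shared the barcode of a precursor. The median depth of a precursor ranged from 3839 UMIs in P60 cortex to 7740 UMIs in P7 SVZ.

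The genes that selected the cells are described here with no test. Pdgfra stood at 677, 727 and 839.7 CPM in the earlier and 1051, 1508, 1194 and 1252 CPM in the later libraries, Cspg4 at 161, 162 and 236 against 258, 274, 324 and 359 CPM and C1ql1, a secreted C1q-like protein, at 1208, 1005 and 841 against 2045, 1654, 1949 and 1622 CPM. Lhfpl3 stood at 599, 719 and 866 against 916, 1007, 1049 and 1042 CPM and the matrix protein gene Matn4 at 683, 816 and 266 against 747, 945, 1448 and 772 CPM. All 4 later libraries lay above all 3 earlier ones for Pdgfra, Cspg4, C1ql1 and Lhfpl3, while the groups overlapped for Matn4. Groups did not overlap in 23.0% of all tested genes. A fixed minimum of UMIs asks for a higher CPM in a shallower cell. Median depths were 6116.5, 7592 and 7740 UMIs in earlier and 5542, 3839, 5416 and 4229.5 UMIs in later precursors. The part of the selection in these levels was not tested, and nothing is read from this separation. Just inside the limit on identity genes (2 UMIs) lay 1, 4, 9, 4, 3, 0 and 1 cells in library order, and just outside it (1 UMI) 3, 9, 17, 7, 2, 1 and 2 cells. At the limit on dividing-cell genes, 13, 51, 72, 42, 5, 6 and 7 cells held 1 UMI and stayed in, and 4, 15, 19, 11, 1, 0 and 1 cells held 2 UMIs and fell out. The limit removed 15.1, 24.5 and 26.8% of otherwise selected cells from the earlier libraries and 13.8, 3.57, 0.980 and 2.13% from the later ones.

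Of 9036 genes tested with edgeR's quasi-likelihood test, 311 (3.44%) were higher and 296 (3.28%) lower in the later libraries at an adjusted p under 0.05. In 2079 genes (23.0%) the 3 earlier and 4 later libraries did not overlap, and 576 of the 607 called genes were among them. The numbers depended on single libraries. Leaving out P2 cortex gave 67 higher and 46 lower genes, P60 cortex 96 and 41, P60 white matter 113 and 61, and P60 grey matter 209 and 195. In every one of the 7 fits that left out 1 library, 56 higher and 32 lower genes were called.

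The genes named for the size of their rise encode, among others, a connexin, a chaperone, a lipid-modifying enzyme and a matrix link protein. Gjc3 (Ensembl ENSMUSG00000056966, mm10 chromosome 5, 137953461 to 137963098), a connexin of the oligodendrocyte lineage, stood at 6.90, 26.1 and 29.7 CPM in the earlier and 123, 511, 355 and 437 CPM in the later libraries. Its log2 fold change, later against earlier libraries, was 3.77 (SE 0.49, adjusted p = 0.00312). The lowest later value, in P15 cortex, was above every earlier one, and the 3 P60 libraries lay above P15 cortex. Its mean was 20.9 ± 12.2 CPM (SD, n = 3) against 357 ± 168 CPM (SD, n = 4). Cryab (ENSMUSG00000032060, chromosome 9, 50751325 to 50756636), a small heat shock chaperone, rose from 21.8, 70.2 and 34.7 CPM to 408, 602, 473 and 1015 CPM (log2 fold change 3.65, SE 0.42, adjusted p = 0.00312). Ptgds, a prostaglandin D synthase, rose from 5.75, 5.32 and 4.34 CPM to 57.4, 126, 273 and 151 CPM (log2 fold change 4.69, SE 0.52, adjusted p = 0.00312). Both separated the groups completely, with P60 white matter highest for Cryab and P60 grey matter highest for Ptgds. The 3 genes were called in each of the 7 fits with 1 library left out.

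**Figure D1:**
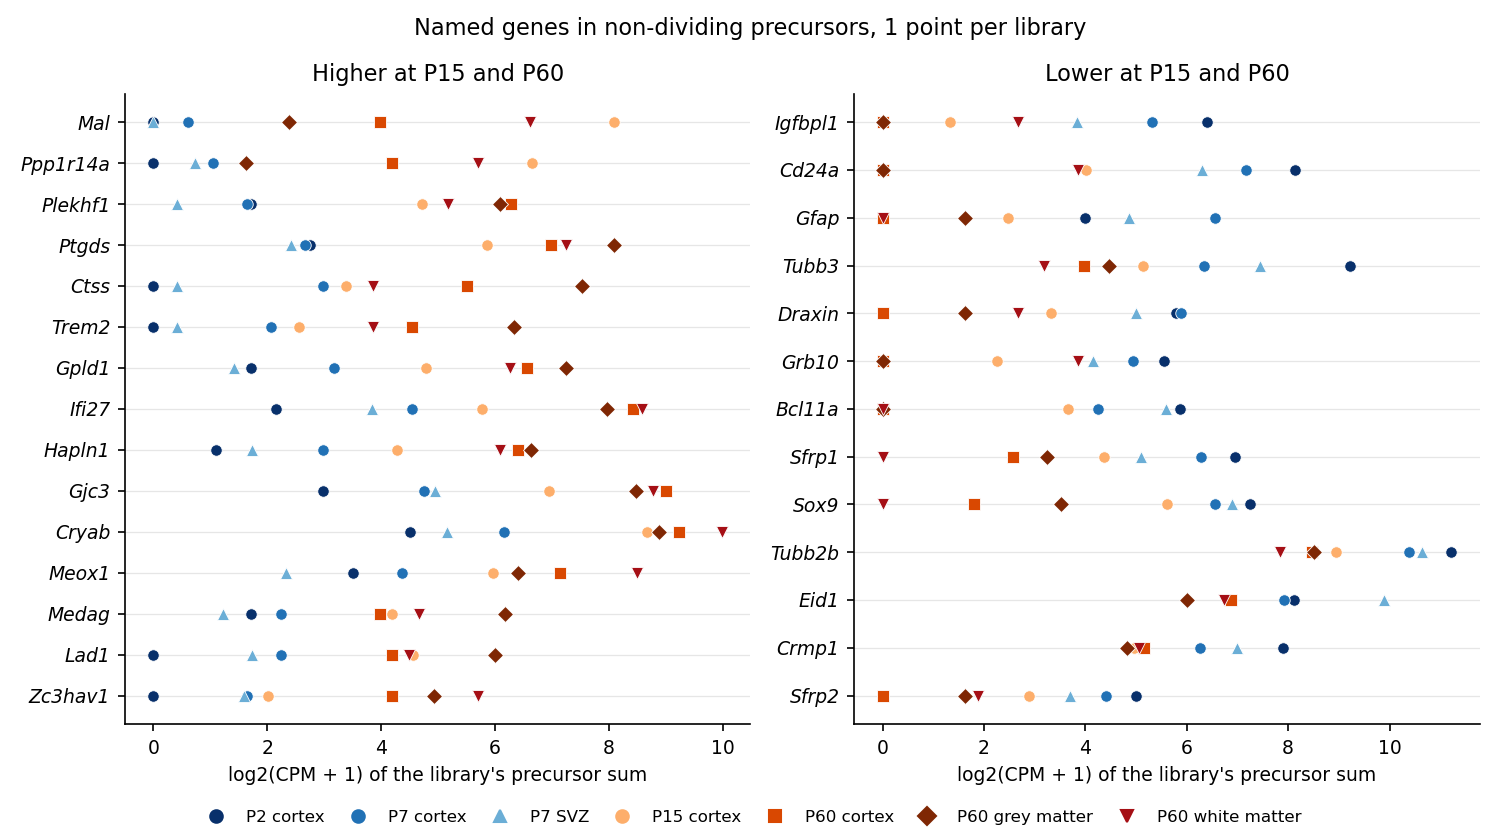
Levels, as log2(CPM + 1) on the x axis, of 15 higher and 13 lower genes named by the size of their change, each point the precursors of 1 library and each line 1 gene. The 3 earlier libraries are in blue and the 4 later ones in orange to red. Gjc3, Cryab, Ptgds and Ifi27 lie further right in the 4 later libraries, and Cd24a, Tubb3 and Tubb2b further left.

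Hapln1, the link protein that ties proteoglycans to hyaluronan, stood at 1.15, 6.92 and 2.33 CPM in the earlier and 18.5, 83.9, 98.8 and 67.5 CPM in the later libraries (log2 fold change 3.88, SE 0.64, adjusted p = 0.00726). Gpld1, a phospholipase that frees GPI-anchored proteins from membranes, stood at 2.30, 7.98 and 1.67 against 26.8, 93.8, 151 and 75.6 CPM (log2 fold change 4.16, SE 0.65, adjusted p = 0.00611). Plekhf1, a lipid-binding protein of endosomes and lysosomes, stood at 2.30, 2.13 and 0.333 against 25.3, 76.5, 67.3 and 35.1 CPM (log2 fold change 4.97, SE 0.63, adjusted p = 0.00312). For Hapln1, Gpld1 and Plekhf1 alike, P15 cortex lay above every earlier and below every P60 library, and each was called in all 7 fits with 1 library left out. In astrocyte-gated cells Hapln1 stood at 20.9, 91.9 and 42.7 against 265, 149, 133 and 132 CPM, above precursors in every library. Gpld1 stood there at 1.67, 20.5 and 15.9 against 68.8, 158, 143 and 144 CPM, above precursors except in P2 cortex and P60 grey matter. The part of astrocyte RNA in these rises was not tested. Ifi27, an interferon-induced protein of mitochondria, stood at 3.45, 22.3 and 13.3 against 54, 343, 250.1 and 381 CPM (log2 fold change 3.95, SE 0.62, adjusted p = 0.00615), also called in all 7. Lad1, a protein of anchoring filaments, stood at 0, 3.72 and 2.33 against 22.6, 17.3, 63.1 and 21.6 CPM (log2 fold change 3.47, adjusted p = 0.00909) and Medag, known as an adipogenesis regulator, at 2.30, 3.72 and 1.33 against 17.4, 14.8, 71.5 and 24.3 CPM (3.48, adjusted p = 0.0118). For both, P60 grey matter stood apart from the other later libraries.

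Meox1 (ENSMUSG00000001493, chromosome 11, 101877510 to 101894374), a homeobox transcription factor best known from the somites, stood at 10.3, 19.7 and 4.0 CPM in the earlier and 61.5, 141, 84.1 and 359 CPM in the later libraries. The log2 fold change of Meox1, later against earlier libraries, was 3.61 (SE 0.66, adjusted p = 0.00941), and the call was lost without P2 cortex. Its level in P60 white matter was the highest and its level in P7 SVZ the lowest. Zc3hav1, an antiviral zinc finger protein, was at 0, 2.13 and 2.0 against 3.02, 17.3, 29.4 and 51.3 CPM (log2 fold change 3.42, adjusted p = 0.0411) and, of the 4 fits with 1 library left out that could test it, 1 called it.

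A summed level can rise because more cells hold a gene or because each cell holds more of it, so the share of cells with at least 1 UMI was counted as well. After thinning each cell to 2000 UMIs, Gjc3 was found in 1.41, 4.25 and 3.20% of cells in the earlier and 16.1, 52.7, 43.2 and 52.4% in the later libraries. The exact (Clopper-Pearson) 95% interval was 2.14 to 7.47% in P7 cortex, 12.8 to 19.8% in P15 cortex and 42.1 to 63.1% in P60 cortex, and these intervals cover counting error only. Unthinned shares were 4.11, 8.02 and 9.83% and 32.1, 75.9, 77.2 and 76.1%. Neu4, a sialidase, was found in 4.93, 16.2 and 9.36% of cells in the earlier and 45.9, 63.4, 61.4 and 61% in the later libraries, Hapln1 in 0.704, 0.772 and 0.493% of cells in the earlier and 3.62, 15.1, 18.2 and 12.2% in the later libraries and Meox1 in 2.82, 3.86 and 0.739% of cells in the earlier and 7.47, 17.2, 15.9 and 37.8% in the later libraries. Microglia-gated cells of the same libraries, which should lack these genes, held them after the same thinning in at most 2.93% for Gjc3, 0.717% for Neu4, 1.19% for Hapln1 and 0.546% for Meox1, at median depths of 2535 to 10264 UMIs per cell. Astrocyte-gated cells held Gjc3 and Neu4 in at most 0.907% and Meox1 in at most 0.805%. They held Hapln1 in 4.82, 14.7 and 7.34% in the earlier and 37.8, 23.5, 22.2 and 22.6% in the later libraries, above precursors in every library. The part of astrocyte RNA in the Hapln1 values was not tested. Thinning left out 1 to 15 precursors per library that held fewer UMIs.

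Transcripts of other cell classes moved with the groups. Mal, a proteolipid of compact myelin, stood at 0, 0.532 and 0 CPM in the earlier and 273, 14.8, 4.20 and 97.2 CPM in the later libraries (adjusted p = 0.00912), and Ppp1r14a, an inhibitor of myosin phosphatase that is abundant in oligodendrocytes, at 0, 1.06 and 0.667 against 99.6, 17.3, 2.10 and 51.3 CPM (adjusted p = 0.00909). All 3 earlier values of both lay at or under the level of 3 UMIs, so no fold is given, and neither passed the filter on low counts without P15 cortex, P60 cortex or P60 white matter. In microglia-gated cells, which should not make myelin, Mal stood at 0, 0 and 0 against 402, 60.6, 12.7 and 133 CPM, above the precursor level in each later library, and in mature oligodendrocyte-gated cells at 3066 to 5152 CPM in the later libraries. The summed level of 12 mature oligodendrocyte markers was 36.8, 287 and 130.4 CPM in earlier precursors and 3452, 209.8, 84.1 and 602 CPM in later ones, highest in P15 cortex. Ptgds and Cryab were also far higher in mature oligodendrocyte-gated cells at P60 (3717 to 12678 CPM and 7161 to 7883 CPM) than in precursors, and in microglia-gated cells of the later libraries they reached 16.6 to 147 and 66.7 to 297 CPM. Gjc3, in contrast, was at 0 to 51.1 CPM in microglia-gated cells against 355 to 511 CPM in P60 precursors and 386 to 827 CPM in P60 oligodendrocyte-gated cells. How much RNA from oligodendrocytes adds to the precursor values was not tested.

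The microglial transcripts Ctss and Trem2 rose as well. Ctss, the protease cathepsin S, stood at 0, 6.92 and 0.333 CPM in the earlier and 9.43, 44.4, 183 and 13.5 CPM in the later libraries (adjusted p = 0.0412) and Trem2, a lipid receptor of microglia, at 0, 3.19 and 0.333 against 4.91, 22.2, 79.9 and 13.5 CPM (adjusted p = 0.0351), each highest in P60 grey matter. With 1 library left out, Ctss was called in 1 of 6 fits that could test it and Trem2 in 1 of 3, in both cases the fit without P7 cortex. In microglia-gated cells Ctss stood at 1174 to 7380.5 CPM and Trem2 at 951 to 2268 CPM. The 16 microglia markers other than Cst3 summed to 11.5, 205 and 27.4 CPM in earlier and 148, 462, 1244 and 189 CPM in later precursors, with 15, 0 and 1 of the 16 at 0 in the earlier and 0, 0, 0 and 5 in the later libraries. Among the 10 microglia markers that were tested, 2 were called higher (Ctss and Trem2), against 3.44% of all genes. Leaving out P7 cortex gave 10 of 12 tested and P15 cortex 3 of 8, and leaving out any of the other 5 libraries gave 0. The part of microglial RNA in other rises was not tested.

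Cd24a and the tubulins Tubb2b and Tubb3 were among the genes named for the size of their fall. Cd24a (ENSMUSG00000047139, chromosome 10, 43578284 to 43584265), a surface glycoprotein of immature neurons and progenitors, fell from 280.5, 144 and 77.4 CPM to 15.1, 0, 0 and 13.5 CPM (log2 fold change -4.29, SE 0.62, adjusted p = 0.00488). Tubb2b, a tubulin of growing neurites and progenitors, fell from 2380.5, 1327 and 1597 CPM to 493, 353, 366 and 229 CPM (log2 fold change -2.48, SE 0.31, adjusted p = 0.00312), with every earlier library over 1000 CPM and every later one under 500 CPM. Tubb3, the tubulin used as a marker of young neurons, fell from 593, 79.8 and 174 CPM to 34.3, 14.8, 21 and 8.10 CPM (log2 fold change -3.80, SE 0.61, adjusted p = 0.00684). All 3 were called in each fit with 1 library left out. For Tubb3, P2 cortex was the highest. Microglia-gated cells held Tubb3 at 804, 54.6 and 186 against 12.3, 20.1, 2.31 and 12.9 CPM. That was above the precursors in P2 cortex, P7 SVZ, P60 cortex and P60 white matter, and below them in the other libraries. Cd24a stood at 371 CPM in microglia-gated cells of P2 cortex, above the 280.5 CPM of precursors, and at 20.4 and 38.3 CPM in those of P7 cortex and P7 SVZ. Tubb2b was lower in microglia-gated cells than in precursors of every library, at 1045, 196 and 445 against 49.1, 34.2, 18.6 and 36.3 CPM. The 17 neuron markers summed to 1294, 292 and 1262 CPM in earlier and 258, 516, 193 and 167 CPM in later precursors, and their part in these falls was not tested.

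Igfbpl1, an insulin-like growth factor binding protein-like gene of neuroblasts, stood at 83.9, 38.8 and 13.3 CPM in the earlier and 1.51, 0, 0 and 5.40 CPM in the later libraries (log2 fold change -4.92, SE 0.82, adjusted p = 0.00726). Microglia-gated cells held it at 20.8, 48.8 and 52.9 against 2.37, 8.56, 0.122 and 8.0 CPM, above the precursors in every library except P2 cortex, and the part of RNA from other cells in its fall was not tested. Draxin, a repellent axon guidance protein, fell from 54, 58.5 and 31 CPM to 9.06, 0, 2.10 and 5.40 CPM (log2 fold change -3.17, adjusted p = 0.00611). Gfap, an intermediate filament of astrocytes and radial precursors, fell from 14.9, 93.1 and 28 CPM to 4.53, 0, 2.10 and 0 CPM (log2 fold change -4.10, SE 0.73, adjusted p = 0.00909), highest in P7 cortex. In each of these genes P15 cortex lay below the lowest earlier library and above at least 2 of the 3 P60 libraries. Astrocyte-gated cells held Gfap at 237, 1330 and 1243 against 191, 22.9, 23.9 and 81.5 CPM, far above precursors in every library. The part of astrocyte RNA in the fall of Gfap was not tested.

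The secreted Wnt antagonists Sfrp1 and Sfrp2 fell from 123, 76.6 and 33 CPM to 19.6, 4.94, 8.41 and 0 CPM (log2 fold change -2.88, adjusted p = 0.0159) and from 31, 20.2 and 12 CPM to 6.42, 0, 2.10 and 2.70 CPM, respectively (-2.42, adjusted p = 0.0262). In astrocyte-gated cells Sfrp1 stood at 1120, 472 and 233 against 173, 215, 314 and 254 CPM, above precursors in every library. The part of astrocyte RNA in its fall was not tested. Sox9, a transcription factor of glial progenitors, stood at 151, 93.6 and 118 against 47.6, 2.47, 10.5 and 0 CPM (log2 fold change -2.61, SE 0.60, adjusted p = 0.0243), Bcl11a, a zinc finger factor of neurons and their precursors, at 57.5, 18.1 and 47.4 against 11.7, 0, 0 and 0 CPM (-2.89, adjusted p = 0.0267) and the imprinted adaptor gene Grb10 at 46, 29.8 and 16.7 against 3.77, 0, 0 and 13.5 CPM (-3.09, adjusted p = 0.0213). Sox9 was not called with P2 cortex, P60 cortex, P60 grey matter or P60 white matter left out, Bcl11a not with P2 cortex, P7 SVZ, P60 cortex or P60 white matter left out, Grb10 and Sfrp1 not with P2 cortex or P60 cortex left out, and Sfrp2 only without P7 SVZ. Eid1, an inhibitor of histone acetylation, fell from 277, 242 and 954 CPM to 118, 116, 63.1 and 105 CPM (-2.44, adjusted p = 0.00732), with P7 SVZ above both earlier cortex libraries. P7 SVZ was also the highest earlier library for Eid1 in astrocyte-gated (107, 68.2 and 455 CPM) and microglia-gated cells (129, 47.6 and 230 CPM). The part of that library in the fold of Eid1 was not tested. Crmp1, a semaphorin signalling protein of growing axons, fell from 238, 75.5 and 126 CPM to 30.2, 34.6, 27.3 and 32.4 CPM (-2.43, adjusted p = 0.00505).

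Of 24 tested genes of the early progenitor list, 13 fell (54.2%, against 3.28% of all genes) and 0 rose, with a median log2 fold change of -0.87 against 0.00 over all 9036 genes. No member rose at an unadjusted p under 0.05 either, and DESeq2 called 12 lower and 0 higher. The fallers included the brain fatty acid binding protein Fabp7, at 4466, 4123 and 4547 against 1868, 1247, 1375 and 1285 CPM (log2 fold change -1.79, SE 0.28, adjusted p = 0.00611), the intermediate filaments Nes (-1.92) and Vim (-1.37), the Notch-dependent repressor Hes5 (-1.50), the Notch ligand Dll3 (-1.51), and Sox4 (-0.96) and Sox11 (-0.78), factors of immature neural cells. Members whose log2 fold changes lay near 0 were Sox2 (-0.07, adjusted p = 0.903) and Hes1 (0.07, adjusted p = 0.932). Vim and Sox4 were called in 4 and Nes, Hes5 and Sox11 in 2 of the 7 fits with 1 library left out. The count of fallers was 4 (P2 cortex left out), 4 (P60 cortex left out), 7 (P60 grey matter left out) and 5 (P60 white matter left out).

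Genes of precursor identity outside the selection were described as a list of their own. Of 25 tested, 4 rose (16.0%, against 3.44% of all genes) and 0 fell (0 lower also at an unadjusted p under 0.05 and with DESeq2, which called 8 higher), with a median of 0.47. Neu4 rose from 31, 112 and 53.7 CPM to 366, 531, 502 and 532 CPM (log2 fold change 2.65, SE 0.36, adjusted p = 0.00327), and was called in each fit with 1 library left out. Tenascin-R (Tnr, 1.06), the neurexophilin Nxph1 (1.04) and the endocytic adaptor Epn2 (0.97) rose by about 1 on the log2 scale, and were not called with P2 cortex, P60 cortex or P60 white matter left out. The lineage transcription factors had log2 fold changes of 0.70 for Olig1 (adjusted p = 0.233), 0.55 for Olig2 (0.299) and 0.66 for Sox10 (0.0663). Sox10 stood at 263, 212 and 277 against 387, 501, 449.8 and 488 CPM and Olig2 at 853, 875 and 419 against 1339, 1385, 950.1 and 1155 CPM, so both were detected in every library. The number of called members was 1 (P2 cortex left out), 7 (P15 cortex left out), 1 (P60 cortex left out) and 1 (P60 white matter left out).

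Many genes of the protein synthesis machinery were called lower, though most of these calls were lost when 1 of several libraries was left out. Cytosolic ribosomal protein genes took 22.6, 18.4 and 16.5% of all UMIs in earlier precursors and 13.8, 8.35, 6.26 and 10.5% in later ones. The 2 groups did not overlap: the share was 19.2 ± 3.10% (SD, n = 3) against 9.75 ± 3.23% (SD, n = 4). The difference was -9.45 points with a two-sided exact permutation p of 0.0571, the smallest that 3 against 4 libraries can give. Adjusted over 4 sets of cells, of which 1 includes 2 others, this p was 0.0762. Of 75 ribosomal protein genes tested, 43 fell (57.3%, against 3.28% of all genes) and 0 rose (67 lower and 0 higher at an unadjusted p under 0.05, 60 and 0 with DESeq2), with a median log2 fold change of -1.20. Rpl5 stood at 1001, 915 and 1809 CPM in the earlier and 606, 392, 397 and 305 CPM in the later libraries (log2 fold change -1.71, SE 0.30, adjusted p = 0.00870) and remained called in all 7 fits with 1 library left out. Rplp0, a protein of the ribosomal stalk, stood at 5544, 4100.1 and 3033 against 2275, 995, 637 and 1422 CPM (log2 fold change -1.86, SE 0.41, adjusted p = 0.0225) and was not called with P2 cortex, P60 cortex or P60 white matter left out. The count of fallers rested on single libraries: 1 (P2 cortex left out), 21 (P7 cortex left out), 1 (P60 cortex left out), 18 (P60 grey matter left out) and 1 (P60 white matter left out), while the median ranged from -1.43 to -1.03. Cortex libraries alone called 0 of them, with a median of -1.07. Without cells that carried over 1 UMI of the commitment markers Gpr17, Enpp6, Mog and Mag, 4 of 75 fell, with a median of -1.07.

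**Figure D2:**
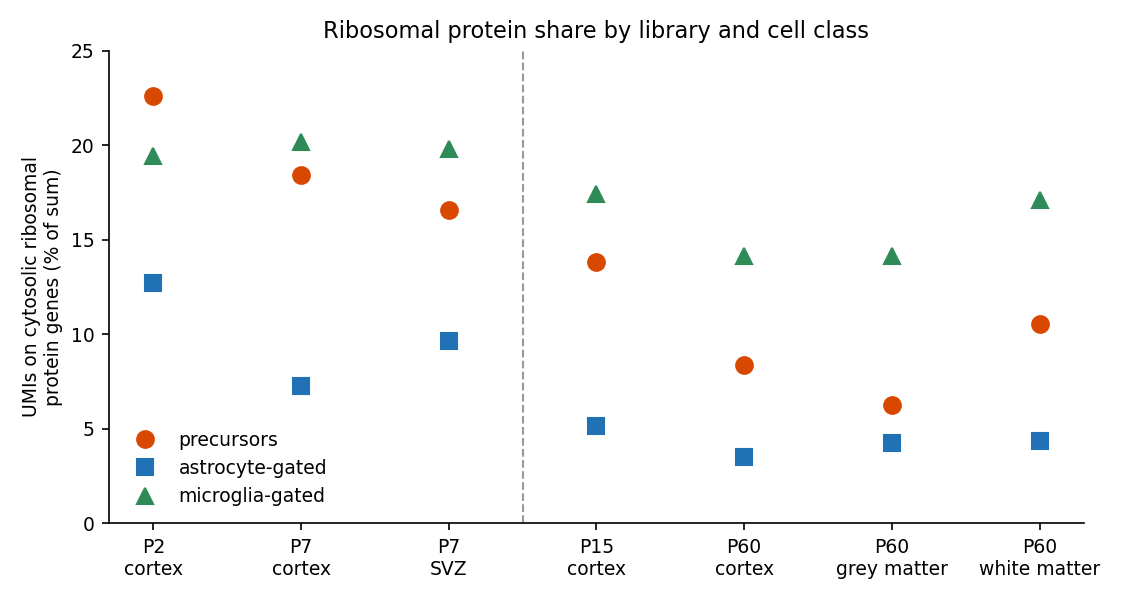
Share of UMIs on cytosolic ribosomal protein genes (percent of the sum) in precursors, astrocyte-gated and microglia-gated cells of each library, 1 point per class and library, with the boundary between earlier and later libraries dashed. The precursor share goes from 22.6% in P2 cortex to 6.26% in P60 grey matter, and the microglia-gated share stays between 14.1 and 20.2%.

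The same share was 12.7, 7.23 and 9.63% against 5.13, 3.53, 4.25 and 4.35% in astrocyte-gated cells and 19.4, 20.2 and 19.8% against 17.4, 14.1, 14.1 and 17.1% in microglia-gated cells. Neither class had overlapping groups, so a lower share in later libraries was measured in all 3 classes. In all kept cells outside the precursor selection together it was 14.3, 12.1 and 11.99% against 10.3, 9.05, 13.4 and 11.8% (exact permutation p = 0.229). That set includes the astrocyte- and microglia-gated cells, for instance 1484 microglia-gated of its 1777 cells in P60 grey matter. The part of its mix of cells in these shares was not tested. Of 31 translation factors, 17 fell (54.8%, against 3.28% of all genes) and 0 rose (22 and 0 at an unadjusted p under 0.05, 18 and 0 with DESeq2), with a median of -0.95. They included the elongation factor Eef1a1, at 7524, 6375 and 4542 against 3686, 2024, 2289 and 2046 CPM (-1.49), the initiation factor subunit Eif3e (-1.39) and the nucleolar protein Npm1 (-1.27). Eef1a1 was not called with P2 cortex, P7 cortex, P60 cortex or P60 white matter left out, while Eif3e and Npm1 were called in all 7 fits. The count was 2 (P2 cortex left out), 9 (P7 cortex left out), 2 (P60 cortex left out) and 3 (P60 white matter left out), and it was 6 without committed cells.

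Most called genes of sterol synthesis fell. Cells make cholesterol from acetyl-CoA through mevalonate, squalene and lanosterol, under control of the SREBP factors that bind sterol regulatory elements, often beside CCAAT boxes bound by NF-Y. Of 25 tested list members, 10 fell (40.0%, against 3.28% of all genes) and 1 rose (4.0%, against 3.44%), with a median log2 fold change of -1.09. Fallers from several steps of the pathway were the synthase gene Hmgcs1 (-1.49) of the steps to mevalonate, Idi1 (-1.59) and Fdps (-1.33) of the isoprenoid steps, Fdft1 (-1.51) and Sqle (-1.80) of the squalene steps, and Cyp51 (-2.0) and Msmo1 (-1.72), which demethylate sterols. The sterol carrier gene Stard4 (-1.68) fell too. Srebf1, which encodes the SREBP factor tied to fatty acid genes, rose (1.38, adjusted p = 0.0483), and Srebf2, tied to sterol genes, had a log2 fold change of -0.69 (adjusted p = 0.115).

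The promoters of 4 of the 10 fallers are shown because these genes fell together. They are the fallers with an entry in the set of RefSeq promoters used here, and those of the other fallers were not examined. Each sequence covers the 250 bases before the gene's start (GRCm38.p6, 5′ to 3′ on the gene's strand), with the letters CCAAT and TCACNCCAC, or their reverse complements, in capitals.
Cyp51, chr5:4104698-4104947 (minus strand): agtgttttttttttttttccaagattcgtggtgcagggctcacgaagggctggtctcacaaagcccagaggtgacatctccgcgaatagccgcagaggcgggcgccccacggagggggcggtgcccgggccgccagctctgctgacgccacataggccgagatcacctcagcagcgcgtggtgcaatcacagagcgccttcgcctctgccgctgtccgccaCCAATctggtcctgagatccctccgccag
Msmo1, chr8:64733579-64733828 (minus strand): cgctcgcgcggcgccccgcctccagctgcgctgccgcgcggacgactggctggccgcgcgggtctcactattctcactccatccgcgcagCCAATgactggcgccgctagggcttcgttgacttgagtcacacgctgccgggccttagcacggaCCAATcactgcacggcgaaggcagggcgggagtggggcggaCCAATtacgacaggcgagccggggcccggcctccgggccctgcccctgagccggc
Idi1, chr13:8885356-8885605 (plus strand): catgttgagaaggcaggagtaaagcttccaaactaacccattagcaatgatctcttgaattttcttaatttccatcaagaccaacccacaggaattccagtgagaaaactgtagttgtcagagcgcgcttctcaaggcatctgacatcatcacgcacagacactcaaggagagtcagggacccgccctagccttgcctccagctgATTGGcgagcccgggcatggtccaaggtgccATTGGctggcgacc
Hmgcs1, chr13:119690101-119690350 (plus strand): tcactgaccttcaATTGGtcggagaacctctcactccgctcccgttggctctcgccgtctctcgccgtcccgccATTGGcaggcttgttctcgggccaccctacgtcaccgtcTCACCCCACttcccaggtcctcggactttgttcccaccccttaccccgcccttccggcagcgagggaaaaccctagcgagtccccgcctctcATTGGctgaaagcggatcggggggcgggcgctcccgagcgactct
CCAAT occurred in all 4, 1 to 3 times each, and in 18 of the 20 list members with an entry. It occurred in 33.8% of all 32851 promoters of that length and in 40.5% of those of 7111 tested genes. TCACNCCAC, a common form of the sterol regulatory element, occurred in 1 of the 4 (Hmgcs1), in 1 of the 20 list members, in 1.05% of all promoters and in 1.29% of those of tested genes. A match is a description of these letters in this window, and so is the lack of one.

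Msmo1 stood at 192, 279 and 252 CPM in the earlier and 106, 56.8, 86.2 and 75.6 CPM in the later libraries (log2 fold change -1.72, SE 0.24, adjusted p = 0.00327), and all later libraries lay below all earlier ones. Cyp51 stood at 148, 162 and 241 against 74, 22.2, 52.6 and 45.9 CPM (log2 fold change -2.0, SE 0.31, adjusted p = 0.00606), Sqle at 189.7, 233 and 158 against 81.5, 44.4, 58.9 and 59.4 CPM (log2 fold change -1.80, SE 0.25, adjusted p = 0.00327) and Fdps at 277, 255 and 247 against 158, 109, 94.6 and 97.2 CPM (log2 fold change -1.33, SE 0.23, adjusted p = 0.00732). These 4 genes were called in each of the 7 fits with 1 library left out. Of the other fallers Idi1 was called in 5 of 7 such fits, Fdft1 in 4 and Hmgcs1 and Stard4 in 1, as was Srebf1. Across the list the count of fallers was 5 (P2 cortex left out), 4 (P60 cortex left out) and 4 (P60 white matter left out), and it was 8 without committed cells.

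**Figure D3:**
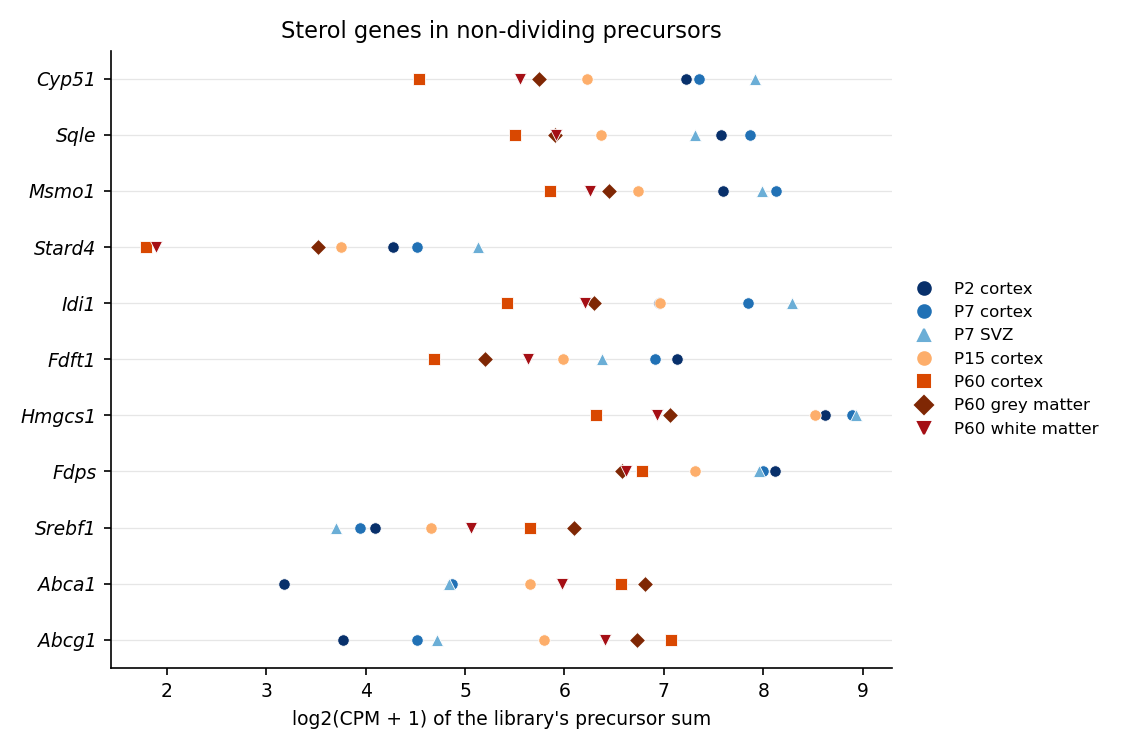
Levels, as log2(CPM + 1) on the x axis, of 11 sterol genes in precursors, 1 point per library, with the 3 earlier libraries in blue and the 4 later ones in orange to red. Msmo1, Cyp51, Sqle and Fdps lie lower in all 4 later libraries than in any earlier one.

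The cholesterol exporters Abcg1 and Abca1 rose from 12.6, 21.8 and 25.3 CPM to 54.3, 133, 105 and 83.7 CPM (log2 fold change 1.95, SE 0.33, adjusted p = 0.00776) and from 8.05, 28.2 and 27.7 CPM to 49.4, 93.8, 111 and 62.1 CPM (1.59, adjusted p = 0.0297). Abcg1 was called in all 7 fits with 1 library left out, and Abca1 was not called with P2 cortex, P60 cortex, P60 grey matter or P60 white matter left out. In the list of fatty acid synthesis and lipid transport, 2 higher and 1 lower of 23 tested were called, the faller being the fatty acid binding protein gene Fabp5 (-1.43). These were 8.70 and 4.35% of the list, against 3.44 and 3.28% of all genes. Apoe, the main lipid carrier of the brain, stood at 583, 1846 and 884 against 1593, 5996, 10615 and 2207 CPM with an adjusted p of 0.0702.

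Some clock genes and some genes listed as induced by glucocorticoids were called higher, and most of these calls were lost without P2 cortex. Of 15 clock genes tested, 6 rose (against 3.44% of all genes) and 0 fell (9 and 0 at an unadjusted p under 0.05, 7 and 0 with DESeq2): Bhlhe41 (2.06), Nr1d1 (2.05), Dbp (1.72), Per1 (1.67), Per3 (1.62) and Tef (1.32). Dbp, a clock output factor, stood at 17.2, 32.5 and 24.3 CPM in the earlier and 71.7, 123, 124 and 64.8 CPM in the later libraries (adjusted p = 0.00912), and the nuclear receptor Nr1d1 at 5.75, 4.79 and 8.67 against 15.5, 32.1, 71.5 and 13.5 CPM (adjusted p = 0.0461). Without P2 cortex Dbp was not called, and Nr1d1 was called in 0 of the 6 fits with 1 library left out that could test it. The time of day of tissue collection is not given in the sources used here, so its part was not tested. The count was 0 (P2 cortex left out), 3 (P60 cortex left out), 3 (P60 grey matter left out) and 2 (P60 white matter left out). Of 15 genes listed as induced by glucocorticoids, 6 rose (40.0%, against 3.44% of all genes) and 0 fell (10 and 0 unadjusted, 9 and 0 with DESeq2), with a median of 1.16, and the count was 1 (P2 cortex left out), 3 (P7 SVZ left out), 1 (P60 cortex left out), 3 (P60 grey matter left out) and 1 (P60 white matter left out). They included the zinc-binding metallothioneins Mt1, at 115, 213 and 127 against 521, 501, 574 and 445 CPM (log2 fold change 1.55, SE 0.25, adjusted p = 0.00676, called in all 7 fits with 1 library left out), and Mt2 (1.58, called in 1 of 7), and Klf9 (1.16), which thyroid hormone induces too. Both lists rose in astrocyte-gated cells as well: 11 of 18 clock genes (median 1.44) and 10 of 20 glucocorticoid-listed genes (median 1.30). There 10.2% of all genes rose, and 0 members of either list fell. For the difference between classes, 0 of 19 and 0 of 21 were more positive in precursors, against 6.09% of all genes. More negative were 2 and 1, against 3.71%.

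Surface receptors and channels changed in a few named members. The potassium channel gene Kcnh8 rose from 3.45, 4.26 and 7.67 CPM to 21.5, 51.8, 33.6 and 32.4 CPM (log2 fold change 2.38, SE 0.42, adjusted p = 0.00870), and 3 others rose among 37 tested channel genes: the sodium channel subunit Scn2b (2.11), Kcna1 (1.44) and the inward rectifier Kcnj10 (1.32). The 4 risers made 10.8% of the list, against 3.44% of all genes. None of the 37 fell, with 1 lower at an unadjusted p under 0.05 and 0 with DESeq2, and the median was 0.24. Leaving out P2 cortex ended the calls of Scn2b, Kcna1 and Kcnj10. Among 26 receptor genes for glutamate and GABA, the GABA-A subunit Gabrg3 rose from 4.60, 3.19 and 7.0 CPM to 18.9, 37, 14.7 and 29.7 CPM (log2 fold change 2.02, SE 0.44, adjusted p = 0.0213) and the AMPA receptor partner Cacng4 by 0.82. These 2 risers made 7.69% of the list, against 3.44% of all genes. Cacng4 was called in 1 of the 7 fits with 1 library left out. Gabrg3 was not called with P2 cortex, P7 cortex, P15 cortex, P60 cortex or P60 white matter left out. The AMPA subunits Gria2 (-0.09, adjusted p = 0.874) and Gria4 (0.73, 0.178) did not pass. Among 51 growth factor receptor and signalling genes, the neuregulin receptor Erbb3 rose from 0, 6.92 and 6.34 CPM to 34.3, 29.6, 37.8 and 18.9 CPM (log2 fold change 2.40, SE 0.51, adjusted p = 0.0201), with Igfbp3 and Nkd1, while Dll3 fell. The list held 5.88% risers and 1.96% fallers, near the 3.44 and 3.28% of all genes. Without P60 cortex Erbb3 was not called. The count of risers was 1 (P2 cortex left out), 5 (P7 cortex left out), 0 (P60 cortex left out), 1 (P60 grey matter left out) and 1 (P60 white matter left out). In the matrix list, Hapln1, Sparcl1 (2.28) and Tnr rose of 30 tested (10.0%, against 3.44% of all genes), Sparcl1 with overlapping groups and called in 2 of the 7 fits with 1 library left out. The count was 1 (P2 cortex left out), 6 (P15 cortex left out), 1 (P60 cortex left out) and 1 (P60 white matter left out). Sparcl1 stood at 130, 346 and 81.4 against 303, 1116, 2083 and 688 CPM in precursors. In astrocyte-gated cells it stood at 1346, 3783 and 2162 against 3754, 3128, 4641 and 2107 CPM, above precursors in every library. The part of astrocyte RNA in the rise of Sparcl1 was not tested. Versican, the large proteoglycan of precursors (Vcan), had a log2 fold change of 1.02 with an adjusted p of 0.0643.

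Genes of the cell cycle were also looked at outside those that selected the cells. Cyclin D2 (Ccnd2), which drives entry into the cycle, fell from 276, 265 and 224 CPM to 111, 133, 107 and 75.6 CPM (log2 fold change -1.45, SE 0.22, adjusted p = 0.00571, called in all 7 fits), and its partner kinase Cdk6 fell by 1.33 on the log2 scale and was not called with P2 cortex, P60 cortex or P60 white matter left out. Of 31 S phase genes 1 fell (3.23%, against 3.28% of all genes: the helicase subunit Mcm6, -1.23) and 0 rose, with 0 higher and 7 lower at an unadjusted p under 0.05 and 0 higher and 1 lower with DESeq2. Among 15 genes of G2 and mitosis, edgeR called 0, with 0 higher and 7 lower at an unadjusted p under 0.05 and 1 lower with DESeq2. The median log2 fold change was -0.56 for the S phase genes (4 positive, 27 negative) and -0.62 for those of G2 and mitosis (1 positive, 14 negative). Over all 9036 tested genes it was 0.00, with 4521 positive and 4515 negative. Cells over the limit on dividing-cell UMIs were left out of both groups, and the part of that limit in these values was not tested. The histone methyltransferase gene Ezh2 (-1.31) was 1 of 4 chromatin regulators of 37 that fell (10.8%, against 3.28% of all genes), with 0 of them called without P60 cortex, and Nrep, a gene of neural growth, fell from 79.3, 59.6 and 81.4 CPM to 19.2, 22.2, 12.6 and 18.9 CPM (log2 fold change -2.18, SE 0.27, adjusted p = 0.00312, called in all 7). Of 18 glycolysis genes, edgeR and DESeq2 called 0, with 1 higher and 2 lower at an unadjusted p under 0.05.

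Genes that respond to tissue dissociation were uneven over libraries, with 0 of 23 called by edgeR, 3 higher at an unadjusted p under 0.05 and 1 higher with DESeq2. Fos, an immediate early gene, stood at 297, 269 and 487 against 70.9, 405, 1673 and 556 CPM, lowest in P15 cortex and highest in P60 grey matter. The list's median log2 fold change was -1.17 for P15 cortex against the earlier libraries and 1.66 for P60 against P15 cortex.

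P15 cortex is the only library between P7 and P60, and its place was described on genes chosen without it. Between the 3 earlier and the 3 P60 libraries alone, 374 of 8055 tested genes were higher (4.64%) and 320 lower (3.97%). The position of P15 cortex was set to 0 at the earlier mean and 1 at the P60 mean of log2(CPM + 2). Its median was 0.613 over the higher genes (quartiles 0.444 and 0.806) and 0.515 over the lower genes (0.411 and 0.691). Of the higher genes 247 (66.0%) lay at or past the midpoint and 36 at or past the P60 mean, and 5 lay at or under the earlier mean. Without P60 white matter the medians were 0.523 and 0.439.

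**Figure D4:**
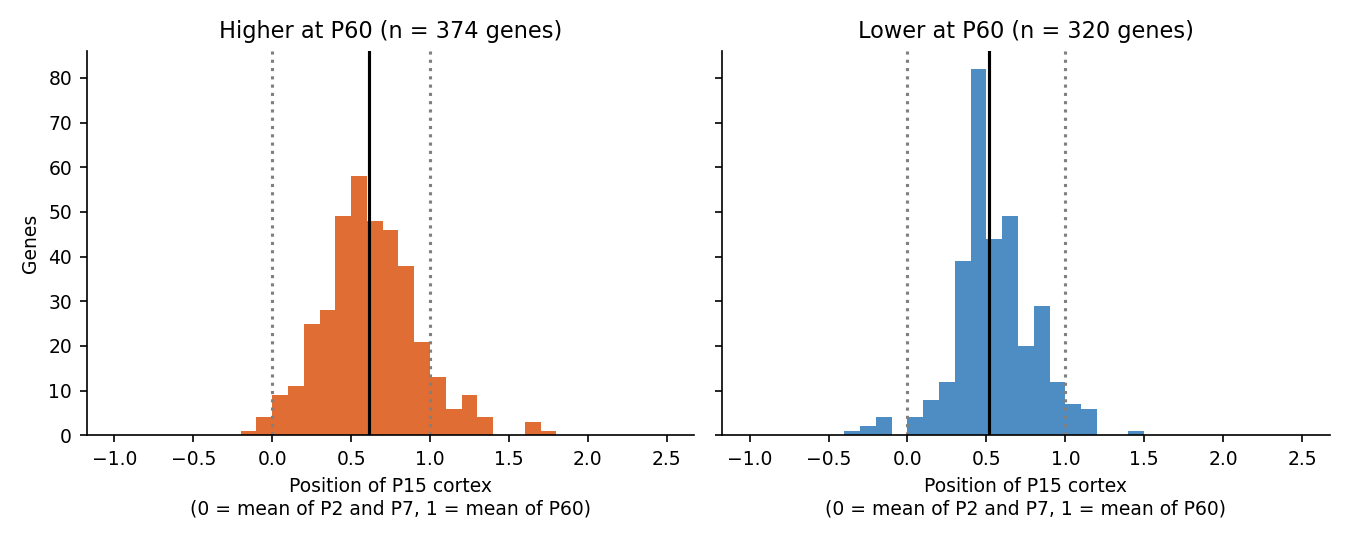
Number of genes by the position of P15 cortex between the mean of the earlier libraries (0) and of the P60 libraries (1), for 374 genes higher and 320 genes lower at P60, with medians as solid lines. The medians are 0.613 and 0.515, and most genes lie between the 2 dotted ends.

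Groups of genes held different places. The ribosomal genes chosen this way (59) had a median position of 0.432, with 0.715 for Rpl26 as the highest, and the 15 lower sterol genes 0.448, with 0.684 for Msmo1 as the highest. The 12 lower early progenitor genes had a median of 0.613, from 0.296 for Sox9 to 1.42 for Sox4, and the 5 higher clock genes 0.768. Erbb3 (1.14) and Gpr17 (1.32), a receptor of precursors about to differentiate, had already passed the P60 mean at P15, while Cdkn1a (0.0762), a cell cycle inhibitor, and Spry2 (0.0353), a brake on growth factor signalling, lay near the earlier mean. These places rest on 1 library and have no replicate check.

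Tested by steps, 20 of 10450 genes (0.191%) were higher in P15 cortex than in the earlier libraries and 0 (0.0%) lower by edgeR, with 428 higher and 287 lower at an unadjusted p under 0.05 and 36 and 11 with DESeq2. The spread in this fit comes from the other 2 groups, and the lone P15 library is assumed to vary like them. The 6 named by size were Mal, Opalin, Mobp, Ppp1r14a, Mog and Il23a. Opalin and Mog, both of mature oligodendrocytes, stood at 0, 0 and 0.333 against 154, 2.47, 2.10 and 54 CPM and at 0, 5.85 and 2.33 against 291, 2.47, 2.10 and 43.2 CPM, and Mobp at 0, 12.2 and 4.67 against 1206, 34.6, 6.31 and 143 CPM. Il23a, a cytokine subunit gene, was found at 38.1 CPM in P15 cortex and at 0 to 0.532 CPM in the other 6 libraries (adjusted p = 0.0328). In microglia-gated cells of P15 cortex, Mog stood at 301 CPM against 291 CPM in precursors. When cells with commitment markers were left out, which kept 68 of 449 cells of P15 cortex, 0 of 8365 genes were called higher by edgeR, with 204 at an unadjusted p under 0.05. Leaving out P2 cortex gave 7 higher genes, P7 cortex 77, P7 SVZ 32 and P60 cortex 12. Between P15 cortex and P60, edgeR called 0 (0.0%) in either direction, with 155 higher and 232 lower at an unadjusted p under 0.05 and 3 and 7 with DESeq2. If P15 cortex was put with the earlier libraries instead, Mal, Ppp1r14a and Mobp had negative log2 fold changes (-0.99, -0.34 and -2.44), and their highest level was at P15.

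Astrocyte-gated cells of the same libraries served as another glial class (361, 1855 and 740 cells in the earlier and 795, 978, 109 and 111 in the later libraries). In them 1131 of 11124 genes were higher (10.2%) and 1366 lower (12.3%). Whether the change differed between classes was tested as an interaction with the library as a block: 738 of 12126 genes (6.09%) had a more positive and 450 (3.71%) a more negative change in precursors. Leaving out P2 cortex gave 365 and 244, P7 SVZ 449 and 286, and P60 cortex 303 and 208. Of the 607 genes called in precursors 128 had such a difference, and since they were chosen by the precursor side of this contrast nothing is read from that number.

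**Figure D5:**
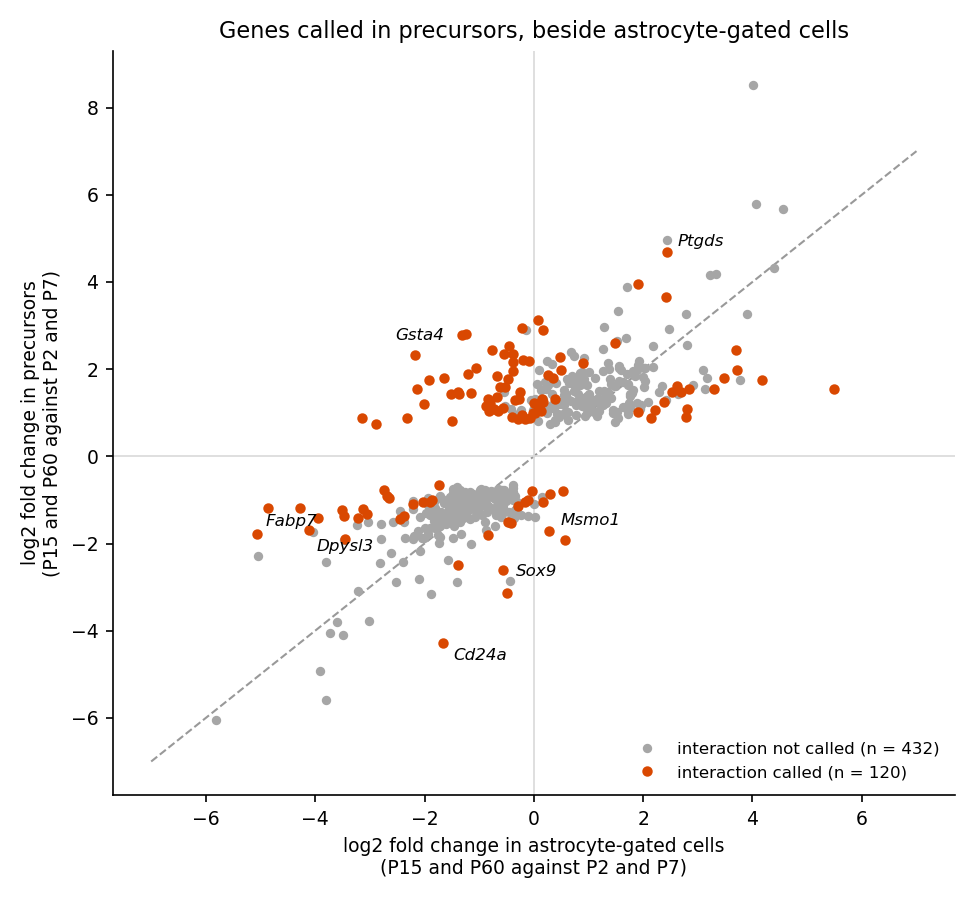
Log2 fold change (later against earlier libraries) in astrocyte-gated cells on the x axis and in precursors on the y axis for 552 genes called in precursors and tested in both classes, in orange where the difference between classes was called. Fabp7 and Dpysl3 lie above the dashed line of equal change, and Msmo1, Sox9 and Cd24a lie below it.

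Of 27 early progenitor genes tested for the difference between classes, 11 had a more positive change in precursors (against 6.09% of all genes) and 3 a more negative one (against 3.71%). Fabp7 stood at 4466, 4123 and 4547 against 1868, 1247, 1375 and 1285 CPM in precursors and at 22128, 11826 and 13128 against 1187, 275, 222 and 213 CPM in astrocyte-gated cells, and the fall was smaller in precursors (difference of log2 fold changes 3.55, SE 0.44, adjusted p = 3.38e-04). Dpysl3, a relative of Crmp1, had a difference of 2.46, SE 0.29, adjusted p = 2.58e-04, and Vim, Sox4 and Sox11 were also on that side. Sox9 stood at 151, 93.6 and 118 against 47.6, 2.47, 10.5 and 0 CPM in precursors and at 445, 388 and 577 against 409, 283, 303 and 301 CPM in astrocyte-gated cells, so that its fall was larger in precursors (difference -2.31, SE 0.53, adjusted p = 0.0133). Cd24a (-2.27, SE 0.54, adjusted p = 0.0182) was on the same side as Sox9.

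Sterol genes were among those with a more negative change in precursors. Msmo1 stood at 413, 929.8 and 398 against 832, 642, 777 and 593 CPM in astrocyte-gated cells (difference -2.16, SE 0.28, adjusted p = 5.15e-04). In all, 7 of 25 list members had a called negative difference, against 3.71% of all genes, and the list's median log2 fold change was -0.37 in astrocyte-gated cells against -1.09 in precursors. The exporters Abcg1 (2.13, SE 0.59, adjusted p = 0.0338) and Abca1 (2.14, SE 0.34, adjusted p = 0.00164) had a more positive change in precursors, as did Gabrg3 (3.27, SE 0.46, adjusted p = 7.39e-04) and the glutathione transferase gene Gsta4, which stood at 13.8, 26.1 and 3.0 against 50.9, 96.3, 210.2 and 89.1 CPM in precursors and at 191, 151 and 144 against 62.5, 43.5, 75 and 97.2 CPM in astrocyte-gated cells (difference 3.96, SE 0.55, adjusted p = 7.39e-04). Ribosomal protein genes had a median log2 fold change of -1.28 in astrocyte-gated cells, where 60 of them fell, beside -1.20 in precursors.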

How the data were processed

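Single-cell RNA libraries of 7 mouse brain samples were used, made with the Chromium single-cell 3′ kit per the labels' protocols. Deposited values are raw UMI counts for every gene in each barcode. Per the file headers the authors used Cell Ranger 3.0.2, and mm10 is the build in the submitters' processing notes. Annotation release and strand setting were not given in the sources used here, so reads of a gene and of an antisense or overlapping partner cannot be told apart.

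Precursors were selected in each library by the limits given above, and doublet calls stayed in (32 of 298 calls by scrublet in scanpy 1.11.5 fell on precursors). Of 31053 genes, 31011 matched GENCODE M21. The 1821 genes on X and Y, 13 mitochondrial genes, 12 selecting genes and 42 unmatched genes were left out, which left 29088. Counts were summed per library and compared with edgeR 4.0.16 in R 4.3.3 (TMM scaling, filterByExpr, quasi-likelihood F test, Benjamini-Hochberg adjustment at 0.05 over all tested genes), checked on simulated counts. Called means an adjusted p under 0.05. Steps with P15 cortex came from 1 fit with 3 groups, and the class difference from an interaction over 14 sums with the library as a block. Shares of UMIs had an exact permutation test over 35 splits. Astrocyte-gated cells had at least 3 UMIs over Aqp4, Gja1, Mlc1 and Slc4a4, 0 of Pdgfra and at most 1 over the genes of dividing cells, Cx3cr1 and P2ry12, Mog and Mag, and Dlx2 and Dcx, microglia-gated cells at least 4 over Cx3cr1, P2ry12, C1qa and Csf1r, and mature oligodendrocyte-gated cells at least 5 over Mog, Mag and Mobp, both with 0 of Pdgfra.

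Genes named by size were the 15 higher and 15 lower with the largest fold change, a mean of at least 20 CPM in the higher group, no overlap between groups and 1 direction in every fit that left out 1 library. The 6 largest changes per step and up to 5 members of each of 35 lists were named by the same order, and others, among them those near 0 and the examples of P15 position, were chosen after their values were seen. Some genes that met these rules are not reported here. The members, the lists and the boundary between groups were chosen with earlier results of these data known. Alternatives were DESeq2 1.42.0, RLE factors, no filter, each library left out, cortex alone, P15 cortex with the earlier group, selection on cells thinned to 2000 UMIs, no dividing-gene UMI, no committed cells, no doublet calls, sums thinned to the lowest total, and other pseudocounts (0.5 or 10 CPM) for the position. Python 3.11.15, numpy 2.4.6, scipy 1.17.1, pandas 2.3.3 and matplotlib 3.10.9 were used. Promoters come from RefSeq (GRCm38.p6).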

Additional observations from a re-analysis of the deposited data

Results flagged for a closer look

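In 32 groups of 4 later libraries checked, 6 had 1 library far from the other 3. Chance gives about 1 in 20 only where groups are not chosen by their values. Mobp, Mog and Il23a were named for their rise in P15 cortex, so that rate does not apply to them and nothing is read from the count. Medag stood at 71.5 CPM and Lad1 at 63.1 CPM in P60 grey matter, against at most 24.3 and 22.6 CPM in the other later libraries. P15 cortex stood apart for Mobp (1206 CPM), Mog (291 CPM), Il23a (38.1 CPM) and Bcl11a (11.7 CPM).

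The change between the groups differed between precursors and astrocyte-gated cells for 7 of the genes named by size, by edgeR's interaction test. These genes were chosen by the precursor side of this contrast, which favours large differences. Nothing is read from their number, and the p-values take no account of that choice. The difference of log2 fold changes was positive for Meox1 (3.74, adjusted p = 0.0117), Ptgds (2.23, adjusted p = 0.0102), Ifi27 (1.87, adjusted p = 0.00704) and Cryab (1.21, adjusted p = 0.0487). It was negative for Sox9 (-2.31, adjusted p = 0.0133), Cd24a (-2.27, adjusted p = 0.0182) and Tubb2b (-1.07, adjusted p = 0.0351). Meox1 stood at 2.51, 10.2 and 1.71 against 5.75, 0, 0 and 0 CPM in astrocyte-gated cells, where all 3 P60 libraries were at 0.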

How the results depend on the processing

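Of the changes of named genes under these alternatives, 374 kept direction and side of the threshold, 54 kept only the direction, and 3 reversed, all with P15 cortex put with P2 and P7 (Mal -0.99, Ppp1r14a -0.34, Mobp -2.44). Changes that an alternative could not test are not counted. Without committed cells 14 named genes could be tested, on thinned sums 17 and with selection on thinned cells 20, against 29 with DESeq2. Genes named by size had to keep 1 direction with each library left out, so no reversal could arise there. The counts between the groups (311 higher, 296 lower) were 514 and 498 with no filter, 126 and 99 with cortex alone, 79 and 95 with P15 cortex put with P2 and P7, and 163 and 89 without committed cells, a setting that tests fewer genes. Leaving out 1 library gave 67 to 374 and 41 to 320. For P15 cortex against P2 and P7 (20 and 0), the counts were 36 and 11 with DESeq2, 152 and 73 with no filter, 8 higher with selection on thinned cells, 0 without committed cells and 5 higher on thinned sums, and 7 to 77 and 0 to 9 with 1 library left out. For P60 against P15 cortex (0 and 0), they were 3 and 7 with DESeq2, 43 and 61 with no filter, 1 lower with selection on thinned cells and 7 lower on thinned sums, and 0 to 7 lower with 1 library left out. The class differences (738 and 450) were 1153 positive with no filter, 331 and 274 on thinned sums, and 303 to 939 and 208 to 477 with 1 library left out. The median P15 position ranged from 0.523 to 0.660 (higher) and 0.439 to 0.578 (lower) with 1 library left out, and the lower one was 0.338 without committed cells. Except where an alternative tests fewer genes or libraries, the cause was not tested. No paired analysis was possible because the labels give the libraries no replicate numbers that pair them across ages.

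The shallow P60 sums and 3 against 4 libraries limit what can be called, and early levels of 3 UMIs or fewer give no fold. The time between P7 and P60 rests on P15 cortex alone, and P7 SVZ differs from the others in strain, region and barcode set.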

Other observations

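Of 44 splicing factors 7 fell (15.9%) and of 71 nuclear genes of the respiratory chain 6 fell (8.45%), against 3.28% of all genes tested. Leaving out single libraries gave 1 (P2 cortex left out), 4 (P7 cortex left out), 4 (P15 cortex left out), 0 (P60 cortex left out), 4 (P60 grey matter left out) and 0 (P60 white matter left out) for splicing factors and 0 (P2 cortex left out), 0 (P7 cortex left out), 0 (P60 cortex left out) and 0 (P60 white matter left out) for the respiratory chain. Of 55 adhesion and axon guidance genes 5 rose (9.09%, against 3.44% of all genes), and the count was 0 (P2 cortex left out), 1 (P7 cortex left out), 0 (P60 cortex left out), 2 (P60 grey matter left out) and 1 (P60 white matter left out). The risers were Nrcam (log2 fold change 1.30), Nrxn2 (1.0), Lrrtm3 (0.78), Sema3d (1.43) and Ntn1 (1.24), and Epha4 fell (-1.63). Nrcam binds nodes of Ranvier and axons, Nrxn2 is a presynaptic neurexin, and Ntn1 is the guidance cue netrin-1. In the list of differentiation onset, Gpr17 (1.0) and Kank1 (0.89) rose of 20 tested (10.0%, against 3.44% of all genes). In that list edgeR called 0 lower, with 5 higher and 1 lower at an unadjusted p under 0.05 and 3 higher and 0 lower with DESeq2. Gpr17 stood at 254, 381 and 365 CPM in the earlier and 862, 758, 702 and 715 CPM in the later libraries, highest in P15 cortex. Among imprinted genes, Grb10 and Ndn (-1.40) fell of 15 tested (13.3%, against 3.28% of all genes). In the list of dorsal and ventral patterning, Npas1 (-2.25) and Bcl11a fell and Meox1 rose of 20 tested (10.0 and 5.0%, against 3.28 and 3.44% of all genes).

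The glutathione and metallothionein list held 4 higher genes of 26, Gsta4 (2.77), Mt1, Mt2 and the brain metallothionein Mt3 (0.93), and 1 lower, the thioredoxin reductase gene Txnrd1 (-1.23). These were 15.4 and 3.85% of the list, against 3.44 and 3.28% of all genes. Of 15 astrocyte markers tested in precursors, Htra1 (2.72) and Cxcl14 (1.09) rose and Gfap fell (13.3 and 6.67%, against 3.44 and 3.28% of all genes). The 17 astrocyte markers summed to 718, 1639 and 895 CPM in earlier and 1376, 2212, 2745 and 1017 CPM in later precursors, so the groups overlapped.

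In the myelin list 7 of 18 tested genes rose (38.9%, against 3.44% of all genes), with a median log2 fold change of 1.62, beside the levels in other cell classes given above. The count was 4 (P2 cortex left out), 4 (P15 cortex left out) and 2 (P60 white matter left out). It was 3 without committed cells, and 1 with P15 cortex put with P2 and P7, where the median was -0.50. Of 5 tested mature oligodendrocyte markers 3 rose, and 0 did so with P15 cortex or P60 white matter left out or without committed cells. Of 6 neuron markers tested 2 fell (33.3%, against 3.28% of all genes). Of 28 lysosome genes edgeR and DESeq2 called 0, with 9 higher at an unadjusted p under 0.05. In the list of antigen presentation and interferon 1 of 14 rose (Ifi27), of 8 thyroid hormone response genes 1 rose (Klf9), and of 8 genes of fetal growth and RNA binding 1 fell (Nrep). These were 7.14, 12.5 and 12.5% of their lists, against 3.44% of all genes higher and 3.28% lower. None of the 14 endothelial and mural markers passed the filter on low counts.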
